A study of Homo sapiens with 25 samples.

Results

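DND-41 is an established human line of T-cell acute lymphoblastic leukaemia, and its RNA was sequenced at several histidine levels. The comparison described here sets cells grown for 9 days in medium with 25% of the usual histidine against cells of the same day in full medium (100% histidine). It was chosen by its 2 groups of libraries, replicates 1 to 3 at each level, and so holds 6 of the 25 libraries of the study. The study also grew the line without histidine and at 12.5% and 50%, and sampled most levels on days 6 and 9. The groups used beside the main pair were 12.5% (3 libraries) and 50% (2 libraries) on day 9 and 25% (2 libraries) and 100% (3 libraries) on day 6. All libraries come from 1 cell line with no other treatment named, and nothing in the labels tells whether replicates are separate cultures. The p-values therefore reflect only how far these libraries spread, and that spread may be technical.

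Histidine is an essential amino acid that human cells take from their medium and load onto its tRNA with the synthetase HARS1. When amino acids run short, uncharged tRNAs activate the kinase GCN2, which lowers general translation and raises that of the transcription factor ATF4, whose targets include amino acid transporters and synthetases. Another route, through the kinase mTORC1, ties amino acid supply to ribosome production, lipid synthesis and growth. Leukaemia cells in culture divide all the time, and genes for mitosis are transcribed in waves late in the cell cycle, under the factors B-MYB and FOXM1 and the DREAM complex. Many of their promoters carry a cell cycle homology region (CHR) and CCAAT boxes. Genes of cholesterol and fatty acid synthesis are controlled together by the SREBP factors, and their promoters often pair a sterol element with a CCAAT box bound by NF-Y.

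The promoter sequences below belong to genes of mitosis and sterol synthesis, the 2 lists the comparison turns on, and to CDCA3, a cell cycle gene in neither list that had the smallest adjusted p. They are the 170 bases before the start of each gene in RefSeq on GRCh38.p14, written 5′ to 3′ on the strand of the gene. Capitals mark the CHR, searched as TTTGAA or TTCGAA, and the CCAAT box, each on both strands. PLK1 lies at chr16:23678719-23678888 (plus strand), CCNB2 at chr15:59104976-59105145 (plus), CDC20 at chr1:43358811-43358980 (plus), CDCA3 at chr12:6851287-6851456 (minus), LSS at chr21:46228775-46228944 (minus) and MVD at chr16:88663092-88663261 (minus).
PLK1: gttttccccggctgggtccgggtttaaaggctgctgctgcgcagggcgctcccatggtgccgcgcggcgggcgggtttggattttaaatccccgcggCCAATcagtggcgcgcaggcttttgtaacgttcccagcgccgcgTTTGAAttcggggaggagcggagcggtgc
CCNB2: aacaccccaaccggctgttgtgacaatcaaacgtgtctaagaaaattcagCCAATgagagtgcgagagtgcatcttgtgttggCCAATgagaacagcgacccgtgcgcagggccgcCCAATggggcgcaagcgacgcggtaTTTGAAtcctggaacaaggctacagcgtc
CDC20: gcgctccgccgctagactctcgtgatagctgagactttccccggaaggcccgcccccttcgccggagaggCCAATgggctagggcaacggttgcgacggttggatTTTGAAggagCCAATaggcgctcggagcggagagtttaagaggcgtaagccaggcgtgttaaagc
CDCA3: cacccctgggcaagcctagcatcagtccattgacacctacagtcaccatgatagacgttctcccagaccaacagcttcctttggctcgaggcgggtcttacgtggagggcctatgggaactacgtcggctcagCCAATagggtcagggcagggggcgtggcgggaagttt
LSS: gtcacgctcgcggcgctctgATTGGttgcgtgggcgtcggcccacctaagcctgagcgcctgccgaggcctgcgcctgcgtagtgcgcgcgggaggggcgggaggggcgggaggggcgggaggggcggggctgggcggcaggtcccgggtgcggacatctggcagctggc
MVD: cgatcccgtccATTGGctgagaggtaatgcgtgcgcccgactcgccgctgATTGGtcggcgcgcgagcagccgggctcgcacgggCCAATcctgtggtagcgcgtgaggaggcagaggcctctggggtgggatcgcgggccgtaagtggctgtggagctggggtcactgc
PLK1, CCNB2 and CDC20 each had a CHR in this stretch, and CDCA3, LSS and MVD had none. RefSeq promoters were matched for 31 of 37 mitosis genes, 18 of 23 cholesterol genes and 11453 of the 18799 genes tested. In the 250 bases before the start, a CHR stood in 17 of the 31 mitosis promoters (54.8%), in 1 of the 18 cholesterol promoters (5.56%) and in 10.4% of those of all tested genes. A CCAAT box stood in 23 of the 31 mitosis promoters (74.2%) and 13 of the 18 cholesterol promoters (72.2%), beside 35.2% of all. The sterol element TCACNCCAC was found in none of the cholesterol or mitosis promoters and in 0.786% of all. In the 18 matched promoters of fatty acid synthesis and desaturation, the element stood in 1 (5.56%) and a CCAAT box in 10 (55.6%). Only this form of the sterol element was searched, so no match does not mean that such an element is absent. A match of letters is a description and not a bound site.

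The deposited values are normalized counts per gene, and the 6 libraries added up to between 15200000 and 16000000 of them, with 14619 to 15210 genes at 10 or more. Log2 counts correlated at 0.964 to 0.969 among the 25% libraries, at 0.969 to 0.972 among the 100% libraries and at 0.956 to 0.969 between the levels. Of 12 markers of T-cell leukaemia 11 were tested, and CD3E, CD3D, LCK, TLX3 and NOTCH1 were abundant in all 6 libraries, while CD2 stayed between 17.5 and 37.6 normalized counts. CD79A, a B-cell receptor component, was at 18450 to 22251 normalized counts at 25%, against 14235 to 17694 at 100%, and none of the 6 B-cell markers tested was called. The myeloid, erythroid and NK lists had 2, 0 and 2 genes above the filter. The fibroblast list also had 2, and neither was called. Its sum was 1200, 1306 and 1301 normalized counts at 25%, against 1412, 1329 and 1448 at 100%. Replicates 1 and 3 at 25% stood apart in epithelial transcripts: KRT8, KRT18 and KRT19 added up to 788, 5.48 and 1358 normalized counts in replicates 1, 2 and 3 at 25%, against 2.71, 2.53 and 17.7 at 100%. Of 6 epithelial markers, 4 passed the filter (KRT8, KRT18, KRT19 and CDH1), and all 6 added up to 825, 5.48 and 1507 at 25%, against 2.71, 2.53 and 17.7 at 100%. KRT18 was listed at 0 in replicate 2 at 25% and in all 3 libraries at 100%, and was called higher (adjusted p = 0.0445), a call lost without any 1 of the 6 libraries except replicate 2 at 25%. Counts below are therefore also given without the libraries high in these keratins (over 100 in sum), which leaves replicate 2 alone at 25% on day 9, assumed to vary like the other groups. The 5.8S ribosomal RNA was at 236, 295 and 882 at 25%, against 157, 360 and 251 at 100%. The part of either in the results was not tested beyond these fits.

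At 25% histidine 3415 of 18799 tested genes changed on day 9 (18.2%), and 1768 of them rose (9.4%) and 1647 fell (8.76%). Changes are differences of log2(normalized count + 1), tested by limma with Benjamini-Hochberg adjustment over the 18799 genes, and this scale understates the change of low genes. The median change over all tested genes was 0.00, and 489 of the called genes passed 2-fold, 275 upward and 214 downward. The libraries of the 2 levels did not overlap for 34.8% of the tested genes (17.6% higher at 25% and 17.2% lower), and 29.2% had an unadjusted p under 0.05. Without the keratin-high libraries 1245 genes were called. The gene with the smallest adjusted p was CDCA3, an adaptor for the degradation of a mitotic inhibitory kinase.

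**Figure D1:**
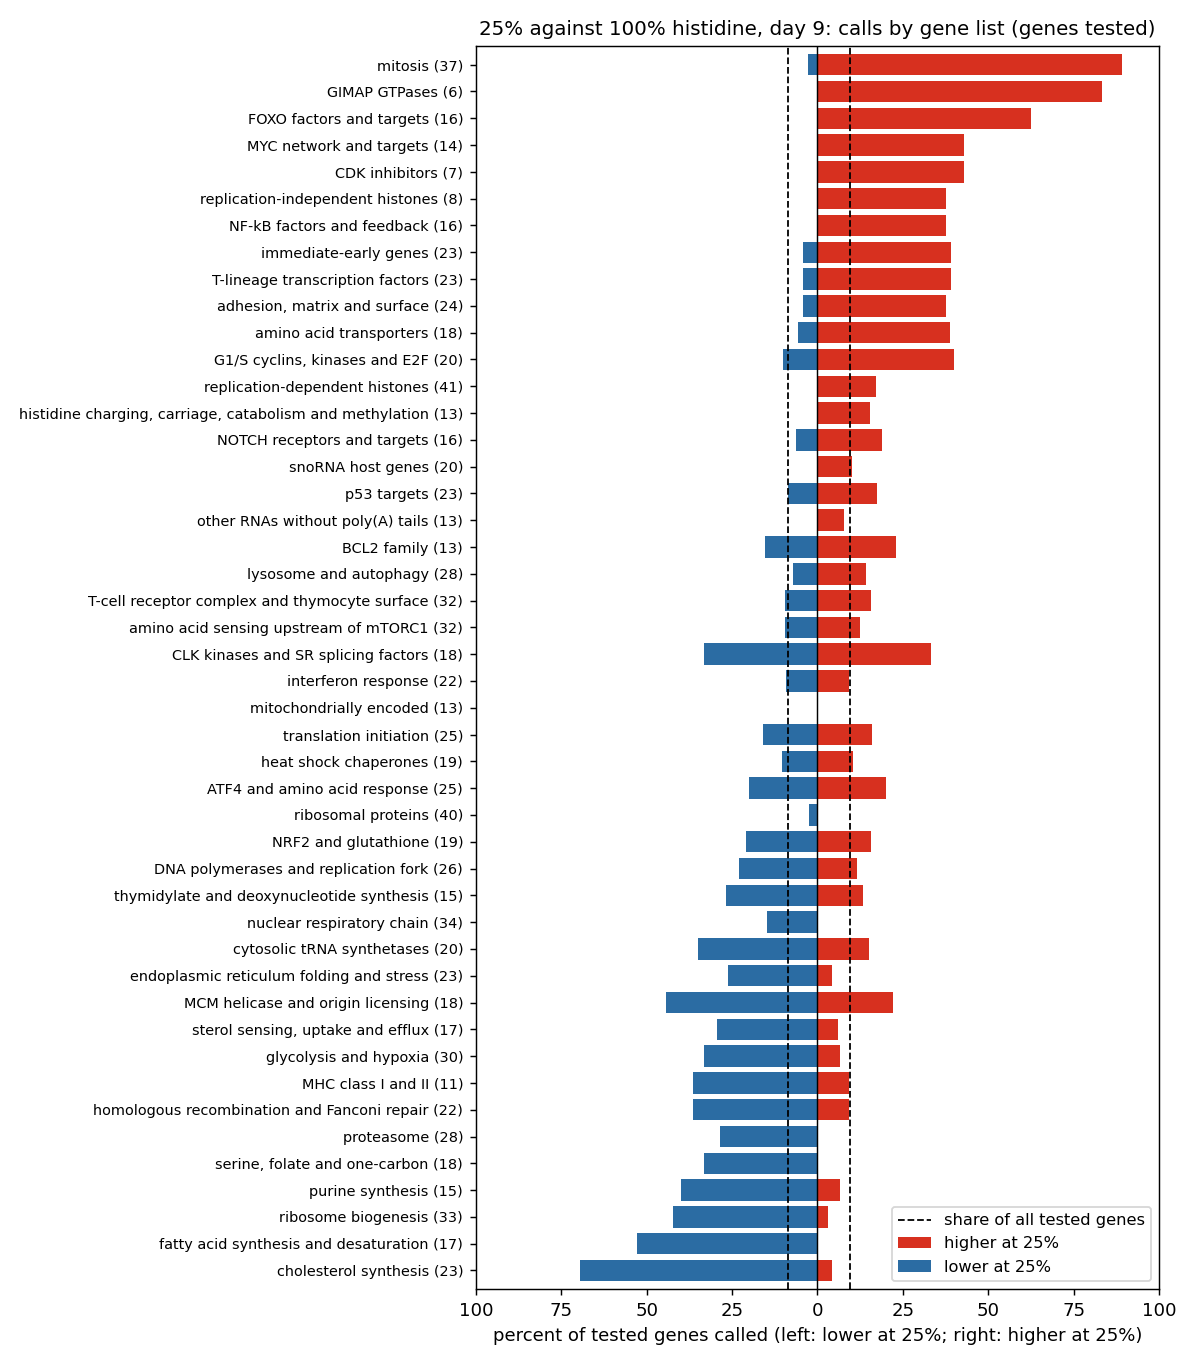
Percent of tested genes in each gene list that were called higher (right, red) or lower (left, blue) at 25% than at 100% histidine on day 9, with the number tested in brackets; dashed lines mark the shares over all tested genes, 9.4% higher and 8.76% lower. Mitosis (33 of 37 higher) stands at the top and cholesterol synthesis (16 of 23 lower) at the bottom.

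Genes of mitosis were higher at 25%. Of 37 genes in the list, all tested, 33 rose and 1 fell, with a median change of 0.80, beside 9.4% and 8.76% of all tested genes. The 6 libraries did not overlap for 35 of the 37, beside 34.8% of all tested genes. In bulk RNA more cells in mitosis and more of these transcripts per cell cannot be told apart. PLK1, the kinase that drives entry into and passage through mitosis, had 6038, 7349 and 7196 normalized counts at 25%, against 2242, 2339.6 and 2223 at 100%. Every 25% library was above every 100% library, and PLK1 rose (log2 change 1.59 ± 0.14 SE, adjusted p = 5.3e-08). CCNB2, a B-type cyclin and partner of CDK1, had 1970.3, 2089.7 and 2138 normalized counts at 25%, against 713, 810.0 and 724 at 100%. All 25% libraries were higher (log2 change 1.46 ± 0.12 SE, adjusted p = 1.99e-08). CDC20, an activator of the anaphase-promoting complex, had 4356, 5100.4 and 4922 normalized counts at 25%, against 1991, 1977 and 1953 at 100%. The groups were apart again (log2 change 1.28 ± 0.14 SE, adjusted p = 8.59e-07).

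NDC80, which ties kinetochores to microtubules, had 5146, 5414 and 5402 normalized counts at 25%, against 1931, 2013 and 1832 at 100%. It rose (log2 change 1.47 ± 0.09 SE, adjusted p = 5.11e-10), and the spread within each level was small beside the gap. CDCA3, outside the list, had 1985, 2002 and 1891 normalized counts at 25%, against 495, 434 and 468 at 100%. The levels were far apart, and CDCA3 rose (log2 change 2.07 ± 0.10 SE, adjusted p = 4.62e-12). PTTG1, the securin that inhibits separase until anaphase, rose by 1.52. The spindle proteins TPX2 and NUSAP1 rose by 1.15 and 1.10, the motor KIF20A by 1.21 and the cytokinesis protein ANLN by 1.13. CDC25C, a phosphatase that activates CDK1, rose by 1.25, CDK1 itself by 0.74, the kinase AURKA by 0.99 and the survivin gene BIRC5 by 1.02. Smaller rises were seen for the transcription factor FOXM1 (0.55) and the proliferation marker MKI67 (0.52), whose call was lost with quantile normalization and without the keratin-high libraries.

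The members that did not rise were few. AURKB, the kinase of the chromosomal passenger complex, fell, with 2154, 2126 and 1959 normalized counts at 25%, against 3252, 3142 and 3069.8 at 100% (log2 change -0.60 ± 0.13 SE, adjusted p = 0.00188). Of its partners in the complex, survivin (BIRC5) rose, as given above. INCENP and CDCA8 did not pass, with changes of 0.27 (adjusted p = 0.0691) and 0.15 (adjusted p = 0.34), nor did the checkpoint kinase TTK with 0.15 (adjusted p = 0.318). INCENP was called higher without replicate 3 at 25%. Without the keratin-high libraries 25 of the 37 rose and none fell.

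**Figure D2:**
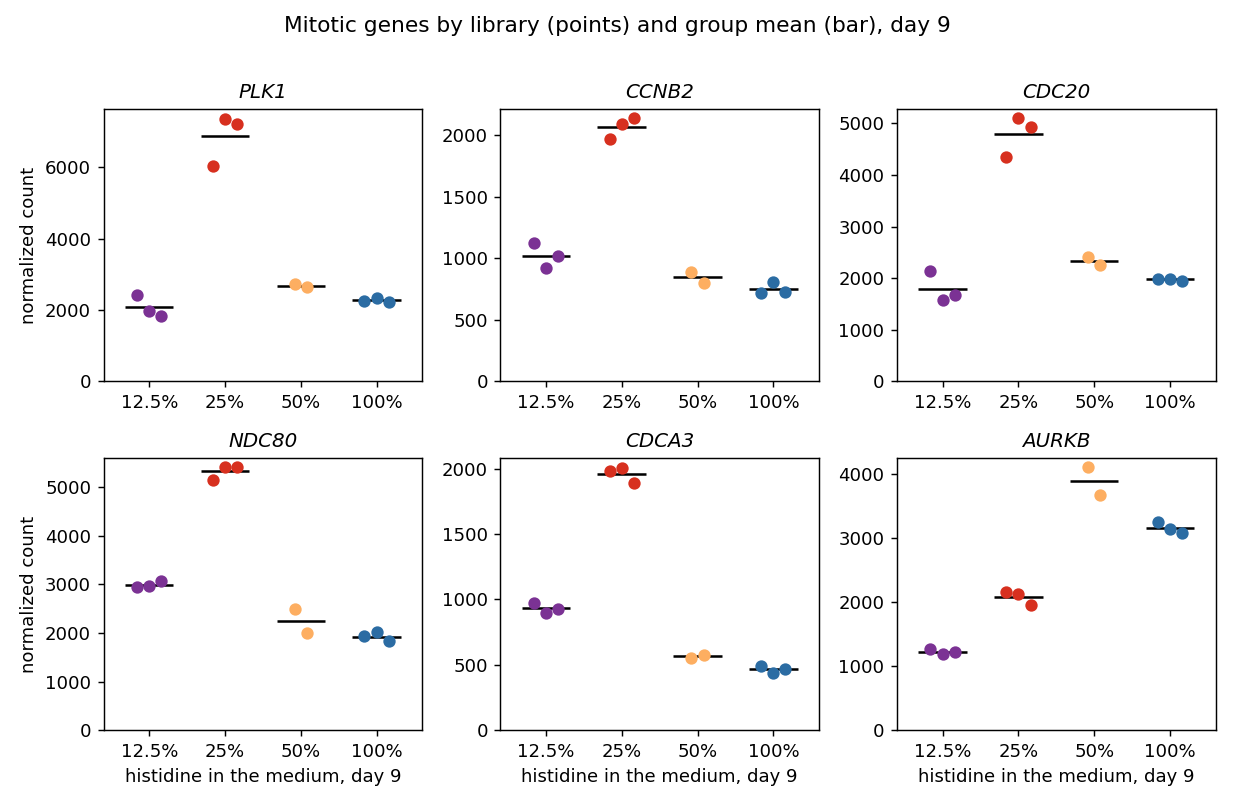
Normalized counts of 6 mitotic genes in each day 9 library (points) at 12.5%, 25%, 50% and 100% histidine, with group means (lines); 50% has 2 libraries and the other levels 3. PLK1, CCNB2, CDC20, NDC80 and CDCA3 are highest at 25%, while AURKB is lower at 25% than at 50% and 100%.

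The direct contrasts with the neighbouring levels on day 9 use the same 25% libraries, so they are not independent of the main comparison. PLK1 averaged 2081 ± 308 at 12.5%, 6861 ± 717 at 25%, 2683 ± 44.5 at 50% and 2268 ± 62.7 at 100% (mean ± SD). The 25% mean stood above those on either side. At 12.5% against 25%, where 6.82% of all tested genes were called, 2.4% higher and 4.42% lower, all 37 mitosis genes were called lower, with a median of -0.85. At 25% against 50%, 25 were called higher and 1 lower (median 0.65), beside 6.64% and 7.21% of all (13.8% in either direction). Without the keratin-high libraries 30 were lower at 12.5% than at 25%, and 21 were higher and 1 lower at 25% than at 50%. Those fits were added after the data were seen. Cyclin B1, CCNB1, showed the widest gap to 12.5%, with 247 ± 52.6 at 12.5%, 854 ± 178 at 25%, 521 ± 123 at 50% and 454 ± 55.9 at 100% (difference of 12.5% from 25% -1.78, adjusted p = 1.35e-05). AURKB was lower at 12.5% than at 25% and lower at 25% than at 50%, and it averaged 1227 ± 35.8, 2079.7 ± 105, 3882 ± 310.1 and 3155 ± 91.8 at 12.5%, 25%, 50% and 100%.

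**Figure D3:**
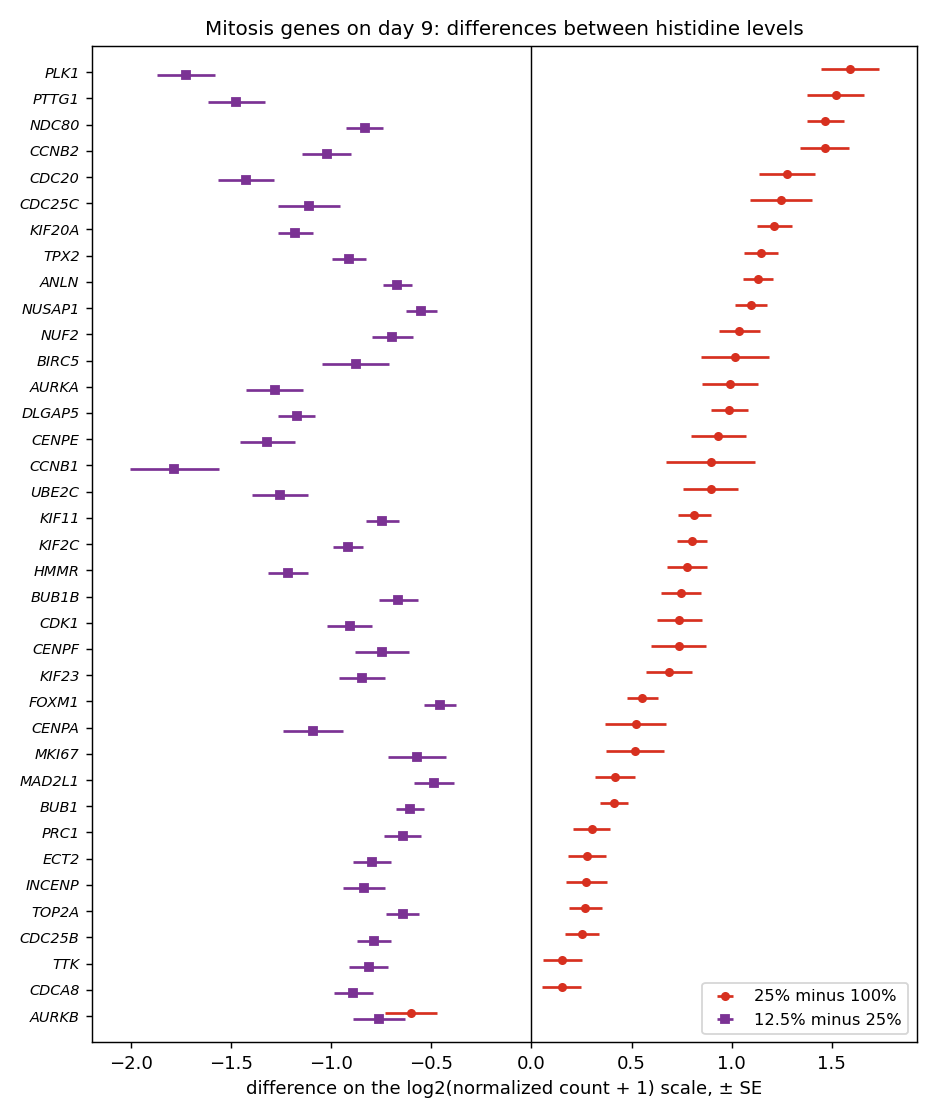
Differences on the log2(normalized count + 1) scale, ± SE, of the 37 mitosis genes on day 9, for 25% minus 100% (red circles) and 12.5% minus 25% (purple squares), which share the 25% libraries. AURKB alone has a negative value in the first, and all 37 are negative in the second.

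Genes of cholesterol synthesis were lower at 25%. Of 23 tested, 16 fell and 1 rose, with a median of -0.73, beside 8.76% and 9.4% of all tested genes. The libraries did not overlap for 20 of the 23, beside 34.8% of all tested genes. DHCR7, which makes cholesterol from its last precursor, had 506, 522 and 549.9 normalized counts at 25%, against 1756, 2131 and 1948 at 100%. Every 25% library was far below every 100% library, and DHCR7 fell (log2 change -1.88 ± 0.15 SE, adjusted p = 1.61e-08). LSS, which closes the sterol ring, had 1033, 949 and 969 normalized counts at 25%, against 2557, 2982 and 2741 at 100%. LSS fell (log2 change -1.49 ± 0.08 SE, adjusted p = 8.23e-11). HMGCS1, at the start of the mevalonate pathway, had 1463, 1391 and 1537 normalized counts at 25%, against 2594, 3730.3 and 2723 at 100%. It fell (log2 change -1.02 ± 0.11 SE, adjusted p = 4.45e-07), and replicate 2 was the highest of the 100% libraries.

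Falls reached from the early to the late steps of the pathway. CYP51A1 and MVD had changes of -1.53 and -1.24, and the squalene enzymes FDFT1 and SQLE had -0.64 and -0.80. LBR, a nuclear membrane receptor with sterol reductase activity, was the member that rose (0.30). Leaving out replicate 1 or 3 of either level ended its call, which was kept in 12 of 19 alternative fits. Without the keratin-high libraries 13 fell and none rose. INSIG1, which holds SREBP in the endoplasmic reticulum and is itself a target, fell by 0.90, while the liver X receptor NR1H2 rose by 0.71. Over the list of sterol sensing, uptake and efflux 1 of 17 tested genes rose and 5 fell, beside 9.4% and 8.76% of all tested genes. Falls numbered 3 without replicate 2 or 3 at 25% or replicate 1 at 100%, and were also fewer without the keratin-high libraries.

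Fatty acid synthesis and desaturation showed 9 of 17 tested genes lower and none higher (median -0.56; 6 lower without the keratin-high libraries). Falls made up 8.76% and rises 9.4% of all tested genes. SCD, the desaturase that makes oleate, had 8991, 8225 and 9009 normalized counts at 25%, against 20796, 22081 and 20988 at 100%. No library overlapped, and SCD fell (log2 change -1.28 ± 0.09 SE, adjusted p = 1.07e-09). The desaturases FADS2 and FADS1 had changes of -1.19 and -1.05. FASN, the fatty acid synthase, had 4405, 4120.0 and 3598 normalized counts at 25%, against 7325, 9689 and 8213 at 100%, with no overlap between the levels (log2 change -1.05 ± 0.10 SE, adjusted p = 1.17e-07).

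**Figure D4:**
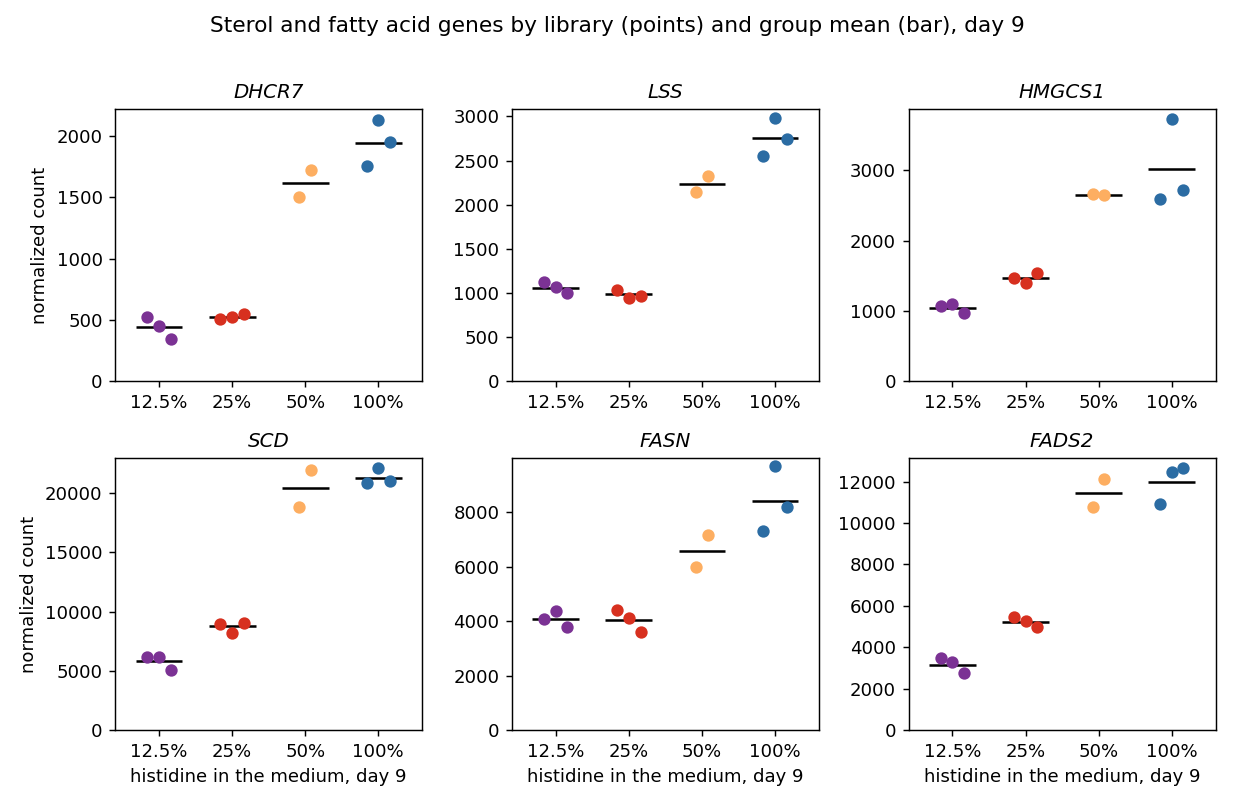
Normalized counts of 6 genes of sterol and fatty acid synthesis in each day 9 library (points) at 12.5%, 25%, 50% and 100% histidine, with group means (lines). The 25% libraries lie below all 50% and 100% libraries for each gene, and close to those at 12.5% for DHCR7, LSS and FASN.

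For the 6 genes plotted the 25% means stood nearer to 12.5% than to 50%. DHCR7 averaged 441 ± 90.0 at 12.5%, 526 ± 22.1 at 25%, 1613 ± 155 at 50% and 1945 ± 187 at 100%. At 25% against 50%, 15 of 23 cholesterol genes were lower and none higher (13 without the keratin-high libraries), and at 12.5% against 25% 6 were lower and none higher (none without those libraries). Over all tested genes 7.21% were lower at 25% than at 50%, and 4.42% were lower at 12.5% than at 25%. SCD took an intermediate level, at 5802 ± 631, 8742 ± 448, 20382 ± 2195 and 21288 ± 693 at 12.5%, 25%, 50% and 100%, and differed between 12.5% and 25% by -0.60 (adjusted p = 9.45e-05).

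Genes of the MCM helicase and origin licensing moved both ways. Of 18 tested, 8 fell and 4 rose, beside 8.76% and 9.4% of all tested genes. MCM2, a subunit of the replicative helicase, had 4989.6, 5370.1 and 5257 normalized counts at 25%, against 10496, 11776 and 12131 at 100%. It fell (log2 change -1.14 ± 0.10 SE, adjusted p = 3.16e-08). The licensing inhibitor GMNN rose by 0.65, the loading factor CDC6 by 0.53 and the helicase part CDC45 by 0.38; the last 2 calls were lost without the keratin-high libraries, which left 1 rise and 1 fall in the list. Leaving out replicate 1 at 25% left 4 falls, and leaving out replicate 2 at 25% or replicate 3 at 100% left 5. Of 26 genes of polymerases and the replication fork 6 fell and 3 rose (5 and 0 without the keratin-high libraries), and TIMELESS, RFC2 and FEN1 had changes of -0.72, -0.70 and -0.58. The share of rises among these polymerase and fork genes was near the 9.4% of all tested genes. TYMS, which makes thymidylate, had 6879.6, 6743 and 6873 normalized counts at 25%, against 11717, 12135 and 12131 at 100% (log2 change -0.81 ± 0.12 SE, adjusted p = 4.21e-05).

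Among 20 G1/S cyclins, kinases and E2F genes 8 rose and 2 fell (5 and 1 without the keratin-high libraries, and 1 fall without replicate 1 or 2 at 25% or replicate 2 or 3 at 100%). The share of falls was near the 8.76% of all tested genes, while 9.4% of all tested genes rose. Cyclin A2, CCNA2, rose by 0.71, the phosphatase CDC25A by 0.58, the repressor E2F8 by 0.72 and RB1 by 0.63. Of 7 tested inhibitors of cyclin-dependent kinases 3 rose and none fell, and all 3 calls held without the keratin-high libraries. CDKN2D, the INK4 inhibitor p19, had 1841, 1678 and 1251 normalized counts at 25%, against 707, 428 and 632 at 100%. It rose (log2 change 1.44 ± 0.16 SE, adjusted p = 7.23e-07), with replicate 3 the lowest of the 25% libraries. CDKN3 and CDKN1B rose by 1.17 and 0.40, while CDKN1A did not pass (0.25, adjusted p = 0.231). In homologous recombination and Fanconi repair 8 of 22 fell and 2 rose, the rises near the 9.4% of all tested genes. Fewer falls were called without the keratin-high libraries. FANCD2, BRCA1 and FANCL had -0.73, -0.64 and -0.97, while FANCI and BARD1 rose by 0.62 and 0.81.

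The amino acid response did not move as a block. Of 25 tested ATF4 targets and related genes 5 rose and 5 fell, with a median of 0.12, beside 9.4% and 8.76% of all tested genes. DDIT3, the stress factor CHOP, had 307, 297 and 308 normalized counts at 25%, against 646, 566 and 528 at 100%. DDIT3 fell (log2 change -0.93 ± 0.11 SE, adjusted p = 3.28e-06), and the levels did not overlap. TRIB3, a pseudokinase, and ATF5, a related factor, fell by 0.64 and 0.68. PPP1R15A, which reverses the phosphorylation of eIF2alpha, rose by 0.73. CHAC1, which degrades glutathione, rose by 0.59, a call lost without replicate 1 or 3 at 100% and kept in 16 of 19 alternative fits. ATF4 itself had 19851, 20356 and 19821 normalized counts at 25%, against 18830.3, 19291 and 18786 at 100%, and did not pass (0.08, adjusted p = 0.631); nor did ASNS, the asparagine synthetase, which was low in all libraries (24.9, 47.3 and 40.6 normalized counts at 25%, against 68.5, 24.3 and 14.0 at 100%; adjusted p = 0.817), or SESN2, a leucine sensor (0.19, adjusted p = 0.389). The count of rises was 1 without replicate 1 at 100%, 2 without replicate 3 at 100%, 3 without replicate 2 at 25% and 1 without the keratin-high libraries, and that of falls was 3 without replicate 3 of either level or the keratin-high libraries.

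Of 18 tested amino acid transporters 7 were called higher and 1 lower, while 9 had a positive and 9 a negative change and the median was 0.05, beside 9.4% and 8.76% of all tested genes called (1 and 0 without the keratin-high libraries; the fall was lost without replicate 2 or 3 at 25% or at 100%, and 2 fell without replicate 1 at 25%). SLC7A11, the cystine transporter, had 1913, 2179 and 2239 normalized counts at 25%, against 1125, 1769.6 and 1337 at 100%. SLC7A11 rose (log2 change 0.60 ± 0.12 SE, adjusted p = 0.000699) with no overlap. Its heavy chain SLC3A2 and the neutral amino acid carrier SLC38A2 rose by 0.69 and 0.42, both calls lost without the keratin-high libraries. HARS1 had 951, 1033 and 977 normalized counts at 25%, against 950.4, 1147 and 1060.0 at 100%, with overlapping levels (-0.09, adjusted p = 0.568). Over the 13 tested genes of histidine charging, carriage, catabolism and methylation 2 rose, SETD3, which methylates a histidine of actin (0.31), and CARNMT1, a methyltransferase of carnosine (0.45), and neither call held without the keratin-high libraries. The call of CARNMT1 was also lost without replicate 1 or 2 at 25% or replicate 1 or 3 at 100%, and was kept in 11 of 19 alternative fits. Falls numbered 7 and rises 3 among 20 synthetases that charge cytosolic tRNAs (5 and 2 without the keratin-high libraries). QARS1, for glutamine, had 1824, 1712 and 1719.9 normalized counts at 25%, against 3985, 3548 and 3877 at 100% (log2 change -1.12 ± 0.11 SE, adjusted p = 9.93e-08). FARSB and WARS1 fell by 0.92 and 0.55, and MARS1 and TARS1 rose by 0.41 and 0.48. Of 32 tested genes that sense amino acids upstream of mTORC1 4 rose and 3 fell, near the 9.4% and 8.76% of all tested genes, among them CASTOR2, a relative of the arginine sensor CASTOR1 (0.57), TSC2 (-0.66) and MIOS (-0.78); 2 rose without any 1 of the 25% libraries or replicate 3 at 100%.

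Of 28 proteasome genes 8 fell and none rose (6 without the keratin-high libraries), while the median of the list was -0.10. Among all tested genes 8.76% fell and 9.4% rose. PSMD2, a base subunit of the regulatory particle, had 2233, 2144 and 2302 normalized counts at 25%, against 5786, 7474 and 5811 at 100%. It fell (log2 change -1.50 ± 0.10 SE, adjusted p = 5.22e-10). PSMC4, PSMA3 and PSMD3 had changes of -1.42, -1.12 and -0.97. Of 33 genes of ribosome biogenesis 14 fell and 1 rose (6 and 1 without the keratin-high libraries): BOP1, WDR12 and the RNA polymerase I factor UBTF had -0.95, -0.92 and -0.70, and NOP56, of the box C/D particle, rose by 0.64. Of 40 ribosomal protein genes only RPL3 was called (-0.66, adjusted p = 0.000348). The 13 mitochondrially encoded genes had no call. Of 25 genes of translation initiation 4 rose and 4 fell, beside 9.4% and 8.76% of all tested genes. Fewer were called without the keratin-high libraries, and 2 rose without replicate 3 at 100%.

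Of 30 tested genes of glycolysis and hypoxia 10 fell and 2 rose (7 and 1 without the keratin-high libraries; 1 rise without replicate 1 or 3 of either level). The share of rises was below the 9.4% of all tested genes, of which 8.76% fell. PFKL, a phosphofructokinase, had 3163, 3034 and 2711 normalized counts at 25%, against 5595, 4697 and 5466 at 100% (log2 change -0.82 ± 0.08 SE, adjusted p = 1.94e-07). GPI and HK1 had changes of -0.87 and -0.68, and the histone demethylase KDM3A rose by 0.78, while GAPDH was not called (0.09, adjusted p = 0.779). In purine synthesis 6 of 15 fell and 1 rose (3 and 0 without those libraries), with PRPS2 at -0.77 and IMPDH2 at -0.76. In serine, folate and one-carbon metabolism 6 of 18 tested fell and none rose (3 without those libraries), with AHCY, which removes S-adenosylhomocysteine, at -0.96; 1 rose without replicate 2 at 25%. CYC1, the cytochrome of complex III, had 1344, 1333 and 1395 normalized counts at 25%, against 2944, 3232 and 3341 at 100% (log2 change -1.22 ± 0.15 SE, adjusted p = 4.88e-06). It was among 5 of 34 nuclear genes of the respiratory chain that fell, while none rose, 21 had a positive change and the median was 0.10. Calls in this list were all falls, beside 8.76% of all tested genes that fell and 9.4% that rose (18.2% in either direction). The count was 2 without replicate 1 at 25%, replicate 2 at 100% or the keratin-high libraries and 3 without replicate 2 or 3 at 25%. ACTB, often used as a control gene, fell by 0.68 (adjusted p = 0.00044).

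Of 16 tested FOXO factors and targets 10 rose and none fell, with a median of 0.37 (5 without the keratin-high libraries and 6 without replicate 3 at 100%). Rises made up 9.4% of all tested genes. GADD45A, a growth arrest gene, had 1751, 1741 and 1570.2 normalized counts at 25%, against 725, 788 and 773 at 100%. All 3 libraries at 25% were higher (log2 change 1.14 ± 0.10 SE, adjusted p = 3.91e-08). PIK3IP1, an inhibitor of PI3 kinase, the pseudokinase TRIB2 and the repressor BCL6 rose by 1.30, 0.76 and 0.81. In the MYC network 6 of 14 tested rose and none fell (4 without the keratin-high libraries). TXNIP, an arrestin that limits glucose uptake, had 4631, 4222 and 3880.3 normalized counts at 25%, against 1839, 1154 and 1595 at 100%. It rose (log2 change 1.49 ± 0.11 SE, adjusted p = 5.28e-09), and the MAX partners MXD1 and MXD3 rose by 0.66 and 0.85. MYC did not pass (-0.16, adjusted p = 0.184).

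Of 23 tested T-lineage transcription factors 9 rose and 1 fell (5 and 0 without the keratin-high libraries; 2 fell without replicate 3 at 25%). Across all tested genes 9.4% rose and 8.76% fell. GATA3, needed for T-cell development, had 3327, 2983 and 2928 normalized counts at 25%, against 1851, 1611 and 1838 at 100%. GATA3 rose with no overlap (log2 change 0.80 ± 0.09 SE, adjusted p = 6.74e-07). ETV6, SATB1 and TOX rose by 0.77, 0.74 and 0.59. TLX3, a homeobox gene activated in a subset of T-cell leukaemias, had 8773, 7001 and 5954 normalized counts at 25%, against 6240.0, 5021 and 5559 at 100%, with replicate 3 at 25% inside the range of the 100% libraries. Its call (0.36, adjusted p = 0.0403) was lost without replicate 1 or 2 at 25% or replicate 2 or 3 at 100%, and was kept in only 10 of 19 alternative fits.

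The GIMAP GTPases, small proteins of lymphocyte survival, had 5 of 6 tested members called higher and none lower, but 1 without the keratin-high libraries. Rises made up 9.4% of all tested genes. The count of GIMAP rises was 1 without replicate 2 of either level, 2 without replicate 1 at 25% and 3 without replicate 3 of either level.

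In the list of the T-cell receptor complex and thymocyte surface 5 of 32 tested rose and 3 fell, beside 9.4% and 8.76% of all tested genes. Only the share of falls was near that of all genes. Fewer were called each way without the keratin-high libraries, and 3 rose without replicate 2 at 25% or replicate 2 or 3 at 100%. TRBC2, a constant part of the receptor beta chain, had 3257, 2825 and 2636 normalized counts at 25%, against 1469, 1271 and 1388 at 100% (log2 change 1.08 ± 0.13 SE, adjusted p = 2.92e-06). The variable segment TRBV6-2 had 1588, 1448 and 1282 normalized counts at 25%, against 357, 307 and 345 at 100% (log2 change 2.09 ± 0.15 SE, adjusted p = 2.34e-09). Segments of this locus resemble each other, and transcript-based counting can divide their reads. CD7, a marker of early T cells, had 4791, 4760.1 and 4636 normalized counts at 25%, against 8905, 8306 and 9497 at 100%, and fell (log2 change -0.91 ± 0.11 SE, adjusted p = 4.78e-06). CD28, a costimulatory receptor, rose by 1.10, and the recombinase gene RAG2 had -0.63. NOTCH1, the receptor most often mutated in this leukaemia, was called lower (-0.26, adjusted p = 0.0412). The call was lost without replicate 1 or 3 of either level, and it was kept in only 10 of 19 alternative fits. The NOTCH1 coactivator MAML2 rose by 0.92, while the NOTCH1 target HES1 was not called (-0.11, adjusted p = 0.477).

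Signal-responsive genes rose in part. Of 23 tested immediate-early genes 9 rose and 1 fell (4 and 0 without the keratin-high libraries, 5 rises without replicate 1 at 25%; 0 falls without replicate 1 at 25% or replicate 2 at 100%, and 2 without replicate 1 at 100%). Among all tested genes 9.4% rose and 8.76% fell. JUN, a subunit of AP-1, had 1276, 1108 and 1023 normalized counts at 25%, against 289.7, 272 and 311 at 100%. It rose (log2 change 1.96 ± 0.15 SE, adjusted p = 5.28e-09), and each 25% library was over 3 times the highest at 100%. FOS, its partner, was low, with 64.1, 42.4 and 26.1 normalized counts at 25%, against 8.50, 13.9 and 17.0 at 100% (1.64). The phosphatase DUSP1 rose by 1.11. Of 16 tested NF-kB factors and feedback genes 6 rose and none fell (3 without the keratin-high libraries), among them RELB (1.18), TNFAIP3 (0.72) and RELA (0.57).

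Of 18 CLK kinases and SR splicing factors 6 rose and 6 fell (4 and 3 without the keratin-high libraries). The shares over all tested genes were 9.4% and 8.76%. CLK1, a kinase that phosphorylates SR proteins, had 1600.1, 1526 and 1434 normalized counts at 25%, against 585, 376 and 409 at 100%. It rose (log2 change 1.76 ± 0.20 SE, adjusted p = 1.81e-06). CLK3 and TRA2A rose by 0.78 and 0.61, while the kinase SRPK2 fell by 0.56. Of 20 host genes of small nucleolar RNAs 2 rose, near the 9.4% of all tested genes, and none fell, and SNHG12 was one of them (1.92). The replacement histone gene H3-3B rose by 0.74. Of 41 tested replication-dependent histone genes 7 rose and none fell, with a median of 0.80. Messages of this class mostly lack poly(A) tails, and the summed level of the list was 5734, 7113 and 16482 at 25%, against 2303, 5316 and 4304 at 100%. Replicate 3 at 25%, also the highest in 5.8S ribosomal RNA, was the highest of the 6. The histone gene H4C3 alone had 1221, 3338 and 10309 normalized counts at 25%, against 519, 1682 and 1531 at 100%. Its levels overlapped, and it was not called (adjusted p = 0.0988). The count of rises in the list was 3 without replicate 3 at 25% or replicate 1 at 100% and 4 without replicate 3 at 100%. It was also lower without the keratin-high libraries.

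**Figure D5:**
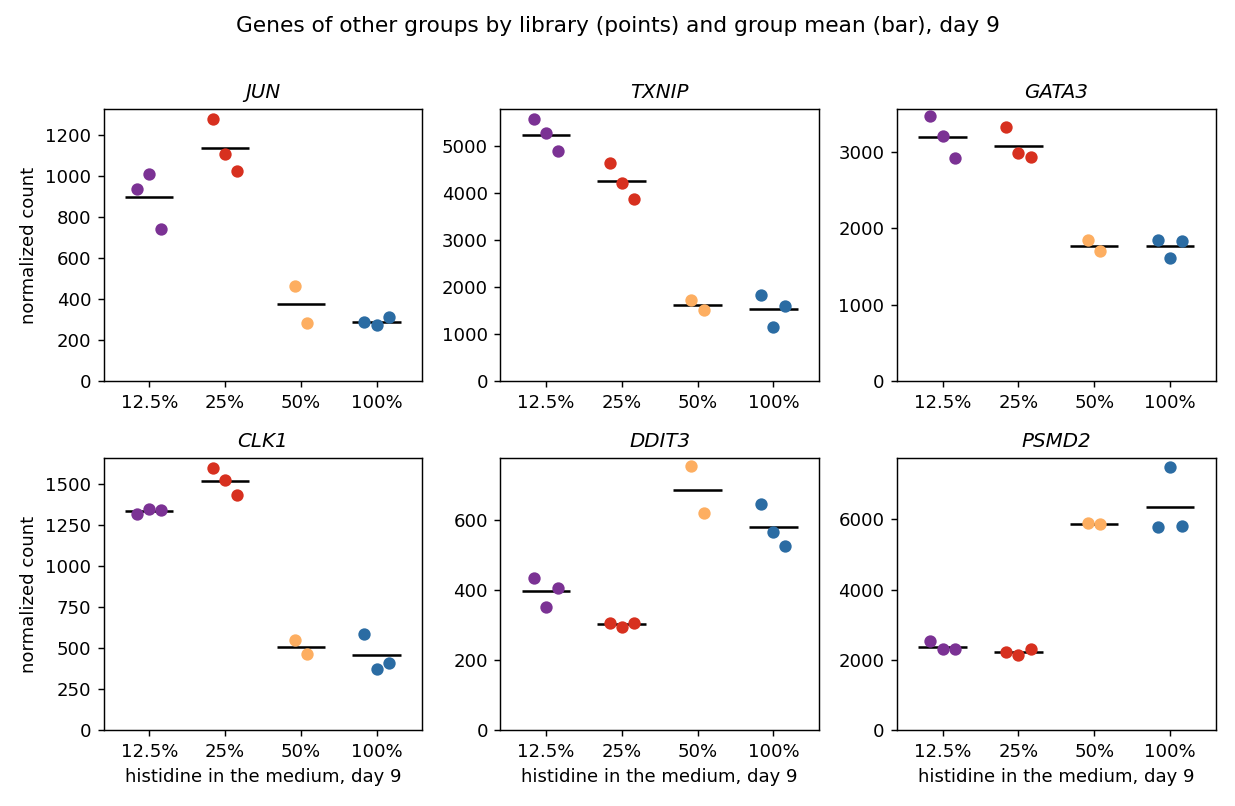
Normalized counts of JUN, TXNIP, GATA3, CLK1, DDIT3 and PSMD2 in each day 9 library (points) at 12.5%, 25%, 50% and 100% histidine, with group means (lines). The first 4 are higher, and DDIT3 and PSMD2 lower, in all 25% libraries than in all 50% and 100% libraries.

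Among the largest rises by size, taken over non-overlapping genes with a symbol whose higher group averaged 50 or more, was LAMB3, a laminin chain of epithelial matrix. LAMB3 had 14.1, 7.73 and 181 normalized counts at 25%, against 2.73, 1.09 and 0 at 100%. It was highest in replicate 3 at 25%, which was high in keratins, and its call was lost without that library or with the keratin covariate. MMP9, a secreted protease, had 103, 79.0 and 98.8 normalized counts at 25%, against 21.8, 7.59 and 12.4 at 100%, with no such excess in 1 library (log2 change 2.77 ± 0.46 SE, adjusted p = 0.000124). Of 24 tested genes of adhesion, matrix and surface, MMP9 among them, 9 rose and 1 fell (6 and 1 without the keratin-high libraries, and 2 falls without replicate 1 at 25%). Across all tested genes 9.4% rose and 8.76% fell. The integrin chain ITGB2 fell by 0.69, and the tetraspanin CD82 rose by 0.99. Among the largest falls were TRO, PRMT7, DHCR7, PODXL and ALDH1B1. TRO had 0, 7.69 and 0 normalized counts at 25%, against 76.6, 75.0 and 38.9 at 100%. PRMT7, an arginine methyltransferase, had 151, 51.2 and 5.31 normalized counts at 25%, against 428, 386 and 280.0 at 100%, with a spread of many-fold among the 25% libraries. PODXL, a sialomucin, had a change of -1.88, and the mitochondrial aldehyde dehydrogenase ALDH1B1 one of -1.67. Among abundant genes the transferrin receptor TFRC fell by 1.39, the cold-shock protein RBM3 fell by 1.18, and the nuclear matrix protein SAFB rose by 1.37.

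The same contrast on day 6 had 2 libraries at 25%, and 13.7% of the tested genes were called, of which 1277 rose (6.79%) and 1300 fell (6.92%). On that day 23 of the 37 mitosis genes rose and 1 fell (18 and 1 without the keratin-high libraries), and 12 of the 23 cholesterol genes fell and 1 rose (6 and 0 without them). PLK1 changed by 1.59 on day 9 and by 0.98 on day 6, DHCR7 by -1.88 and -1.65, and JUN by 1.96 and 1.61. The difference of the 25% effect between the days was tested for each gene, and a single gene passed (0.00532% of those tested), while 1034 had an unadjusted p under 0.05 (5.5%). That gene was SRSF5, an SR splicing factor. On day 9 it had 1890.0, 1784 and 1598 normalized counts at 25%, against 3471, 3029.9 and 3937 at 100%, and on day 6 it had 6466 and 5193 at 25%, against 5461, 5557 and 5154 at 100%. It was lower at 25% on day 9 (log2 change -0.98 ± 0.11 SE, adjusted p = 6.32e-07) and did not pass on day 6 (0.10, adjusted p = 0.65), a difference of -1.09 (adjusted p = 0.011). No gene passed without replicate 3 at 25% on day 9 or replicate 3 at 100% on day 9 or on day 6, and none without the keratin-high libraries. Between 2 and 5 genes passed without replicate 2 at 25%, replicate 1 or 2 at 100% on day 9, or either 25% library of day 6. For IER2, an immediate-early gene, the change was 0.63 on day 9 and -0.17 on day 6 (adjusted p = 0.401), and its day difference did not pass.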

How the data were processed

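RNA sequencing of 25 libraries was analysed, and the 25% and 100% histidine libraries of day 9 form the comparison. Per the labels' protocols, total RNA went into strand-specific libraries. Whether poly(A) RNA was selected, or strand used in counting, was not given in the sources used here. Per gene, the authors deposited a normalized count signal (31919 genes, 9278 named by an Ensembl ID). FastQC 0.11.9, kallisto 0.50.1, DESeq2 1.44.0 and GRCh38 are named, per the submitters' processing notes. Low values did not fall on whole reads (37.8% to 76.2% of values under 20 lay within 0.05 of a multiple of the best step), so no count test was run.

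Genes at 10 or more in 2 or more libraries (18799) were tested with limma 3.58.1 in R 4.3.3 on log2(value + 1), a trend of variance with mean, and 9 group means over all 25 libraries (16 residual degrees of freedom), two-sided, with Benjamini-Hochberg adjustment over all genes and a threshold of 0.05. The code was tested on simulated data. Figures used Python 3.11.15 and matplotlib 3.10.9. The comparison, the gene lists and the rule for named genes were chosen with earlier results of these data known. The rule took the 12 largest changes each way (no overlap, higher group averaging 50 or more), the 10 smallest p-values, the 10 largest changes at a mean of at least 2000, up to 5 members per list and a set of genes named whatever their values. Other genes were named for their role after their values were seen. One library without histidine has conflicting days in its labels and was kept at day 6. The series text names days 3 and 6 where the sample labels name days 6 and 9, and the sample labels were used. Alternatives were pseudocount 8, no filter, a filter of 50 in 3 libraries, upper-quartile and quantile scaling, no trend, library weights, covariates for keratins and 5.8S RNA, a replicate block, the compared groups alone, and leaving out each library or the keratin-high ones. Some genes are not reported here.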

Additional observations from a re-analysis of the deposited data

Results flagged for a closer look

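The effect of 25% histidine on SRSF5, an SR splicing factor, differed between the days: the change on day 9 minus the change on day 6 was -1.09 on the log2 scale (limma, adjusted p = 0.011). It was flagged because the difference between days itself was tested, and it was the single gene of 18799 to pass. All 3 libraries at 25% on day 9 were below all 3 at 100%, while on day 6 the libraries at 25%, at 6466 and 5193, overlapped those at 100%, at 5154 to 5557. The 100% libraries also differed between the days, with 3029.9 to 3937 on day 9. Replicates 1 and 3 at 25% on day 9 and replicates 1 and 2 at 100% on day 6 were high in keratin transcripts, and without the keratin-high libraries no gene passed. The cause was not tested.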

How the results depend on the processing

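The 3415 genes called at 25% against 100% on day 9 became 1245 without the keratin-high libraries, a fit that keeps 1 library at 25%, and 2520 to 3545 with 1 library left out. At 12.5% against 25%, 1282 calls became 1935 with library weights, 681 with the keratin covariate, 840 with the 5.8S covariate, 247 without the keratin-high libraries, and 738 (without replicate 3 at 25%) to 1401 with 1 library left out, with 808 without replicate 2 at 25% and 756 without replicate 3 at 12.5%. At 25% against 50%, 2603 calls became 953 without the keratin-high libraries and 1391 (without replicate 1 at 50%) to 2764 with 1 left out. The single gene of the day difference became 2 with upper-quartile scaling or the 5.8S covariate, 3 with quantile normalization, 8 with library weights, 0 with no mean trend, the keratin covariate, the compared groups alone or no keratin-high libraries, and 0 to 5 with 1 library left out. Named genes kept direction and call in 2667 fits, lost the call in 59, gained it in 6 and changed sign or came to 0 in 3. ASNS was at -0.17 without replicate 3 at 100% (and up to 0.94 without replicate 1 at 100%), and ATF4 at -0.0451 with quantile normalization. KRT18 came to 0 without the keratin-high libraries, since the 25% library left and all 100% libraries of day 9 were listed at 0. Counts of gene lists and of all rises and falls stayed within 1.5 times in 1861 fits and moved further in 315. The 1861 include counts of 0 in both fits and the percent of calls that rose, which was not compared. Same-numbered libraries at 25% and 100% deviated with correlations of -0.0234 to 0.0437. Taken from groups of 3 libraries, these values cannot tell whether equal numbers mark a shared culture or batch. With the replicate block 3361, 1, 1255 and 2492 genes were called in the main comparison, the day difference, 12.5% against 25% and 25% against 50%. The causes were not tested beyond the fewer libraries of some fits. Count tests (edgeR, DESeq2) were not run, since the values are not whole reads, and depth per library before normalization is unknown.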
